A study of Homo sapiens with 8 samples.

Results

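Transcripts of the HRD1 complex and the Derlins were followed in cells labelled HepG2, a human liver tumour line, after knockdown of XBP1 under endoplasmic reticulum (ER) stress. The members are 9 genes named in advance by their role: SYVN1, SEL1L, HERPUD1, DERL1, DERL2, DERL3, UBE2J1, SELENOS and VCP. All 9 had a row in a count table of 18555 genes, and all 9 were among the 14337 genes tested. No measured value entered the choice, but the genes were chosen with earlier results of these data known. The 3 siNC libraries came from cells transfected with Allstar control siRNA, and the 3 siXBP1 libraries from cells transfected with an siRNA against XBP1. Both groups were grown as the same labelled line and, 2 days after transfection, received thapsigargin (30 nM, 3 hours), so the controls were stressed as well. Thapsigargin empties the calcium store of the ER and sets off the unfolded protein response. The comparison is thus between less and more XBP1 mRNA in stressed cells, with no RNA-seq group without the drug among the samples used. Neither the sequence of the siRNA nor the number of siRNAs is given in the labels.

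Proteins that fail to fold in the ER are sent back through its membrane and destroyed by the proteasome, a process called ER-associated degradation. HRD1, encoded by SYVN1, is the ubiquitin ligase at its core, held in place by SEL1L and surrounded by Derlins, Herp (HERPUD1) and the conjugating enzyme UBE2J1. SELENOS tethers the ATPase VCP (p97), which pulls the ubiquitylated client into the cytosol. Spliced XBP1 is known for raising the transcription of many genes of this machinery during ER stress.

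Library totals lay between 38209972 and 38890070 counts. XBP1 itself had 518 ± 29.5 CPM (counts divided by the library total, on a common scale) in siNC and 288 ± 11.4 CPM in siXBP1 (SD, n = 3 each), so that 55.7% of its mRNA remained. Its log2 fold change was -0.84 (SE 0.08), and edgeR's quasi-likelihood test gave a Benjamini-Hochberg adjusted p = 0.0331. XBP1 was the 1 gene of all tested that passed at an adjusted p under 0.05, or 0.00697% of them. DNAJB9, a co-chaperone gene known as an XBP1 target, had 78.3 ± 11.1 and 47.9 ± 7.55 CPM (n = 3 each), without overlap. Its log2 fold change was -0.71 (edgeR adjusted p = 0.818), and it was called by DESeq2 (adjusted p = 0.0123), by edgeR with the first component described next as a covariate (-0.79, adjusted p = 1.81e-07) and by edgeR without the libraries at its ends (-0.95, adjusted p = 2.94e-08). Library siNC-1 (score 0.641) and library siXBP1-3 (-0.649) stood apart at opposite ends of the first principal component, which held 60.6% of the variance. The other 4 libraries scored between -0.289 and 0.24. Of 16 hepatocyte marker genes, 10 had a row and 2 an average of 1 CPM or more. AFP reached at most 0.155 CPM and HNF4A 0.523 CPM, so these defining liver markers were close to 0 in all 6 libraries. Among 6 mesenchymal genes, 5 averaged 1 CPM or more: VIM (1180 CPM), CDH2 (167), COL3A1 (129), COL1A1 (41.9) and PDGFRB (5.57). COL1A2 averaged 0.0174 CPM. Of 7 genes that mark other epithelia, 3 averaged 1 CPM or more: KRT17 (3360 CPM), KRT7 (1470 CPM) and KRT14 (8.78 CPM). KRT5, KRT19, CDH1 and EPCAM averaged 0.0171, 0.578, 0.38 and 0.0257 CPM. The summed level of the hepatocyte list was 19.9 to 24.2 CPM in siNC and 21.6 to 27.5 CPM in siXBP1, most of it FOXA1 (20.4 CPM on average). The summed levels overlapped between siNC and siXBP1 for 5 other marker lists: other epithelia (4260 to 5690 and 4170 to 5300 CPM), mesenchyme (1450 to 1570 and 1430 to 1600), leukocytes (37.5 to 44.1 and 40.5 to 43.5), endothelium (7.74 to 9.33 and 6.32 to 8.87) and plasma cells (126 to 149 and 123 to 137). Most of the leukocyte sum was CD68 (41.0 CPM on average), and most of the endothelial sum was CDH5 (7.07 CPM). Nearly all of the plasma cell sum came from SDC1 (63.4 CPM on average) and PRDM1 (69.0 CPM). MZB1 reached at most 0.0519 CPM, and JCHAIN and TNFRSF17 had no row.

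The stretch upstream of the transcription start is shown for HERPUD1 and SYVN1, because their groups did not overlap and RefSeq gives their promoter. A shorter window is shown for UBE2J1 and VCP, which carry the UPRE motif described next and whose groups overlapped. Bases are 5′ to 3′ on the strand of the gene (GRCh38.p14, RefSeq), and capitals mark the motifs found. HERPUD1 is read from chr16:56931892-56932141 (+ strand) and SYVN1 from chr11:65134520-65134769 (- strand), each the 250 bases before the start. UBE2J1 is read from chr6:89352926-89352972 (- strand) and VCP from chr9:35072787-35072834 (- strand).
HERPUD1: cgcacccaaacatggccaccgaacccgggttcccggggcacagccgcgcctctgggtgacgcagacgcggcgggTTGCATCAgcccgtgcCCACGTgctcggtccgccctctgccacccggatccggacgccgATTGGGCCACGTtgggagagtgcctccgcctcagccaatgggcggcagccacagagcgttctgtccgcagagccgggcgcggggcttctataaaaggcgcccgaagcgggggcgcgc
SYVN1: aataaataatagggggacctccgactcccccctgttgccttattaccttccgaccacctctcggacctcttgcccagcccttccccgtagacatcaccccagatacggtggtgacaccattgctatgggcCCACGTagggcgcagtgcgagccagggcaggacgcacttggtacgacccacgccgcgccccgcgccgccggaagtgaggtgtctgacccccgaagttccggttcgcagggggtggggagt
UBE2J1: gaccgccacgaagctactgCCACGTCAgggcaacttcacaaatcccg
VCP: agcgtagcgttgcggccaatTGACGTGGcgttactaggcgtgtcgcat

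RefSeq promoters, from 250 bases before to 50 after a start, were matched for 7 of the 9 members and searched on both strands. DERL1 and DERL3 had no matched promoter and were not searched. The XBP1 core motif CCACGT, which contains the ACGT centre that XBP1 binds, was present in 5 of the 7: SYVN1, HERPUD1, UBE2J1, SELENOS and VCP. It was present in 9.72% of all 35116 promoters and in 11.7% of the 16414 promoters of tested genes. The longer element UPRE, TGACGTGG, which contains the core, was present in UBE2J1 and VCP and in 0.847% of the promoters of tested genes. ERSE-II, spelled ATTGG, any base, then CCACG, was present in HERPUD1 alone of the 7 and in 0.0914% of those promoters. In HERPUD1 it lay 117 to 107 bases before the start and overlapped 1 of the 2 core matches, so that both are capitalised as 1 run. ERSE, spelled CCAAT, 9 bases of any kind, then CCACG, was present in 0 of the 7 and in 0.11% of those promoters. The ATF4 composite motif TGATGNAA was present in HERPUD1, 176 to 169 bases before the start on the opposite strand, and in 2.11% of those promoters. No motif of these was found in the windows of SEL1L and DERL2. Such matches describe the letters of the reference sequence and not binding in these cells.

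The HRD1 ligase transcript was lower in every siXBP1 library. SYVN1 (gene ID 84447, chromosome 11, 65127279 to 65134519, GRCh38.p14) encodes the ligase that adds ubiquitin to clients and forms the channel in the ER membrane. It had 155, 136 and 144 CPM in siNC-1, siNC-2 and siNC-3 and 121, 103 and 97.6 CPM in siXBP1-1, siXBP1-2 and siXBP1-3. The highest siXBP1 library thus lay below the lowest siNC library. The means were 145 ± 9.84 and 107 ± 12.1 CPM (n = 3 each), and siXBP1 kept 73.8% of the siNC level. The log2 fold change was -0.44 (SE 0.11), with an unadjusted p = 0.00236 and an edgeR adjusted p = 1 over all genes, so the difference did not pass. In bulk RNA, fewer cells that express a gene and less RNA in each cell cannot be told apart. MRPL49, whose RefSeq span overlaps the end of SYVN1, had a log2 fold change of -0.07 (SE 0.10).

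The adaptor of the ligase varied between libraries of the same group more than between groups. SEL1L (gene ID 6400, chromosome 14, 81471547 to 81533853) stabilises HRD1 and receives clients from the lectins of the ER lumen. It had 180, 277 and 252 CPM in siNC and 188, 205 and 252 CPM in siXBP1. The lowest of all 6 values was siNC-1, and siXBP1-3 equalled siNC-3 to 3 digits. The log2 fold change was -0.13 (SE 0.16, edgeR unadjusted p = 0.435, adjusted p = 1). Leaving out a single library put it between -0.30 (without siNC replicate 1) and -0.01 (without siNC replicate 2). Without both siNC-1 and siXBP1-3 it was -0.42 (SE 0.09, edgeR adjusted p = 0.00244). The part of that component in the SEL1L values was not tested. SYVN1 had 86.5, 49.1 and 57.2 counts for every 100 SEL1L counts in siNC, and 64.2, 50.2 and 38.7 in siXBP1, so the ratio of ligase to adaptor reads overlapped between groups.

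Herp was lower in siXBP1 by a small margin, without overlap between groups. HERPUD1 (gene ID 9709, chromosome 16, 56932142 to 56944864) encodes a membrane protein with a ubiquitin-like domain that joins HRD1 under stress and is a well known target of the unfolded protein response. It had 788, 719 and 757 CPM in siNC and 634, 690 and 593 CPM in siXBP1. The gap between groups was small: siXBP1-2 lay just under siNC-2. Means were 755 ± 34.9 and 639 ± 48.5 CPM (n = 3 each), or 84.7% of siNC. The log2 fold change was -0.24 (SE 0.09, edgeR unadjusted p = 0.0242, adjusted p = 1). With a single library left out, the edgeR unadjusted p lay between 0.00778 and 0.0594. Without both siNC-1 and siXBP1-3 the log2 fold change was -0.15 (SE 0.08, edgeR unadjusted p = 0.0774, adjusted p = 0.338). CPM are not divided by transcript length, so levels are compared here between libraries and not between genes.

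**Figure D1:**
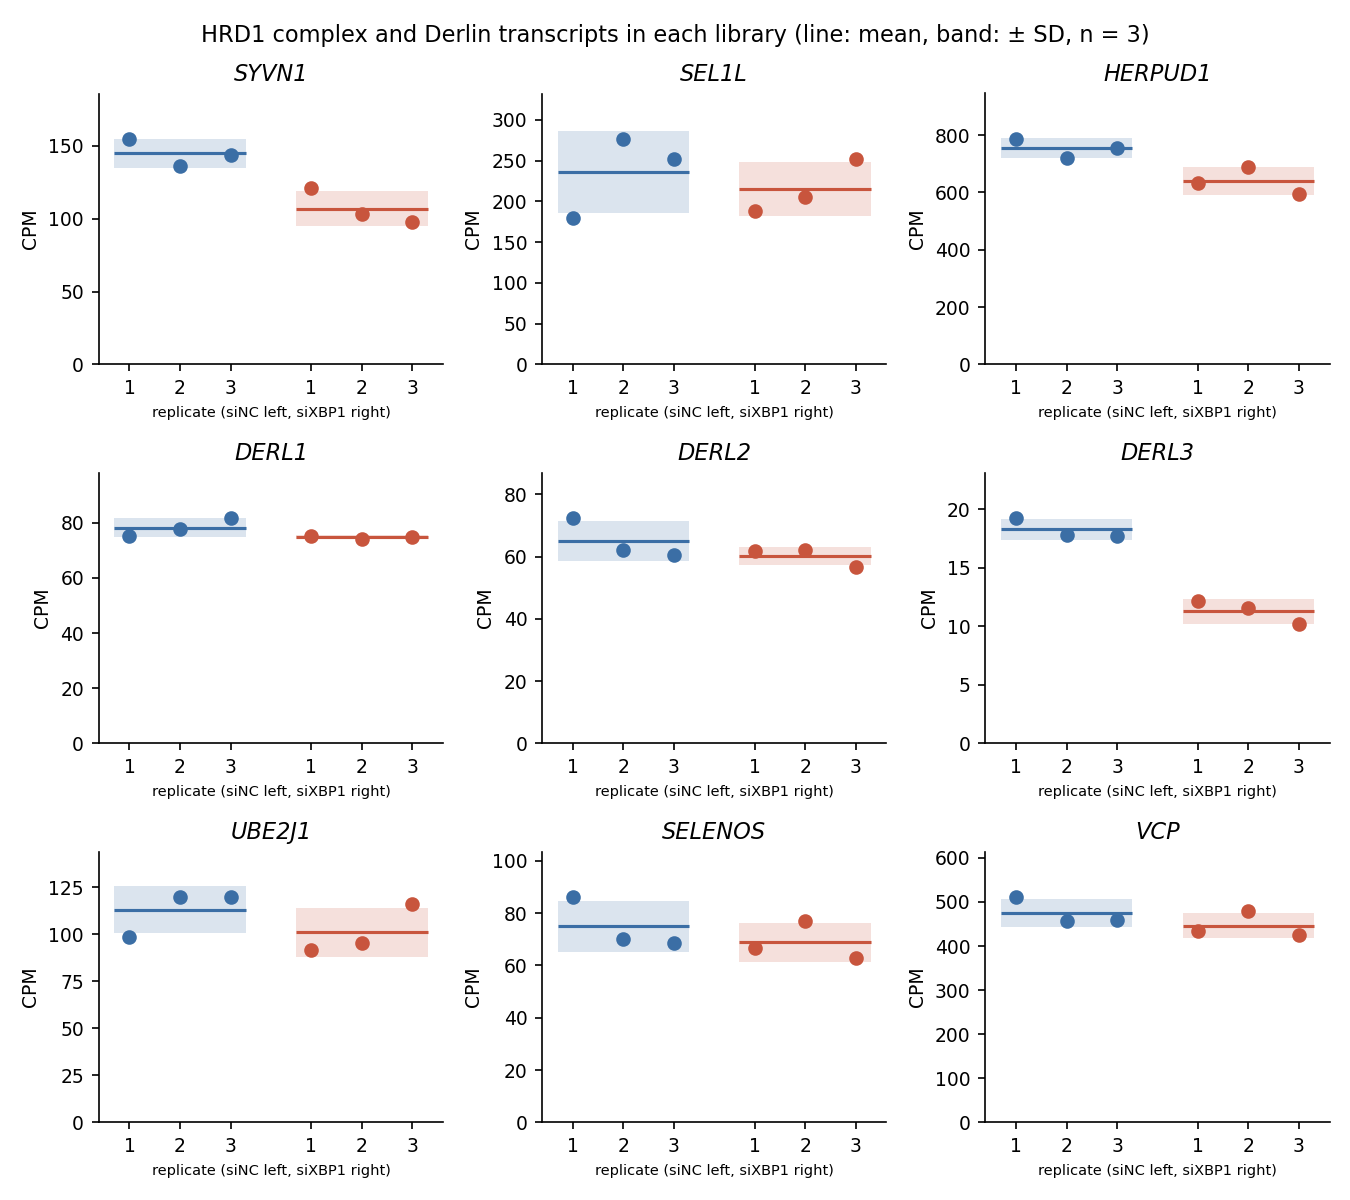
Level of each of the 9 transcripts in CPM (vertical axes from 0, each with its own scale) in the 3 siNC libraries (blue) and 3 siXBP1 libraries (red); points are libraries, lines means and bands ± SD. The groups are apart for SYVN1, HERPUD1 and DERL3 and overlap for the other 6.

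Of the 3 Derlins, rhomboid-like proteins without protease activity that help clients into and across the membrane, DERL3 stood lower in siXBP1. DERL3 (gene ID 91319, chromosome 22, 23834503 to 23839006) had 19.3, 17.8 and 17.7 CPM in siNC and 12.2, 11.6 and 10.2 CPM in siXBP1. All siXBP1 values were well under all siNC values. Means were 18.3 ± 0.901 and 11.3 ± 1.06 CPM (n = 3 each), so 61.9% of the siNC level remained. The log2 fold change was -0.69 (SE 0.13, edgeR unadjusted p = 0.000369, adjusted p = 0.594), the most negative of the 9. DESeq2 called it as lower (adjusted p = 0.00417), as it did 0.0649% of the genes for which it gave an adjusted p. DERL3 rested on 388 to 751 counts a library, where counting error is 3.65% to 5.08% if each count is 1 molecule and 5.16% to 7.18% if counts come in pairs from both mates. Those ranges run over all 6 libraries. The coefficient of variation between libraries was 4.93% in siNC (681 to 751 counts) and 9.39% in siXBP1 (388 to 471 counts). The RefSeq span of DERL3 overlaps that of SMARCB1 over 3507 bases, most of the DERL3 span. SMARCB1, a chromatin remodelling gene, had 106 to 124 CPM, a log2 fold change of 0.01 (SE 0.10) and overlapping groups. As the strand setting of the counting is unknown here, reads in the shared stretch may belong to either.

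DERL1 and DERL2 showed no such gap. DERL1 (gene ID 79139, chromosome 8, 123013170 to 123042302) had 75.4, 77.7 and 81.9 CPM in siNC and 75.4, 74.0 and 74.9 CPM in siXBP1. This was the narrowest range of the 9, 1.11-fold from the lowest to the highest library, and the log2 fold change was -0.07 (SE 0.09, edgeR adjusted p = 1). DERL2 (gene ID 51009, chromosome 17, 5471254 to 5486817) had 72.5, 62.1 and 60.4 CPM in siNC and 61.7, 62.1 and 56.8 CPM in siXBP1. Apart from the higher siNC-1, its libraries lay close together, and the log2 fold change was -0.11 (SE 0.11, edgeR adjusted p = 1). MIS12, a kinetochore gene whose span overlaps that of DERL2, had a log2 fold change of -0.24 (SE 0.11) with overlapping groups. As a share of all Derlin counts in a library, DERL3 made up 11.6%, 11.3% and 11.1% in siNC and 8.2%, 7.83% and 7.16% in siXBP1. The share does not depend on the scaling of the libraries, and its groups did not overlap. With 3 libraries a group, an exact two-sided permutation test cannot go below p = 0.1, so the share is given as a description.

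The conjugating enzyme and the VCP module overlapped between groups. UBE2J1 (gene ID 51465, chromosome 6, 89326625 to 89352722), the membrane-anchored enzyme that hands ubiquitin to HRD1, had 98.6, 120 and 120 CPM in siNC and 91.4, 95.4 and 116 CPM in siXBP1. The low siNC-1 and the high siXBP1-3 brought the groups together, as for SEL1L. Its log2 fold change was -0.16 (SE 0.12, edgeR unadjusted p = 0.222, adjusted p = 1), and without both siNC-1 and siXBP1-3 -0.36 (SE 0.09, edgeR adjusted p = 0.0132). The part of the first component in it was not tested.

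SELENOS (gene ID 55829, chromosome 15, 101270809 to 101277485), the selenoprotein that anchors VCP at the membrane, had 86.3, 70.0 and 68.5 CPM in siNC and 66.7, 77.0 and 62.7 CPM in siXBP1. Here siNC-1 was the highest library, the opposite of SEL1L. The log2 fold change was -0.12 (SE 0.13, edgeR adjusted p = 1) and moved to -0.01 without siNC replicate 1. VCP (gene ID 7415, chromosome 9, 35056064 to 35072625), which also serves many tasks outside the ER, had 512, 457 and 458 CPM in siNC and 434, 479 and 426 CPM in siXBP1. Its highest library was again siNC-1, and siXBP1-2 exceeded siNC-2 and siNC-3. The log2 fold change was -0.09 (SE 0.09, edgeR adjusted p = 1).

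**Figure D2:**
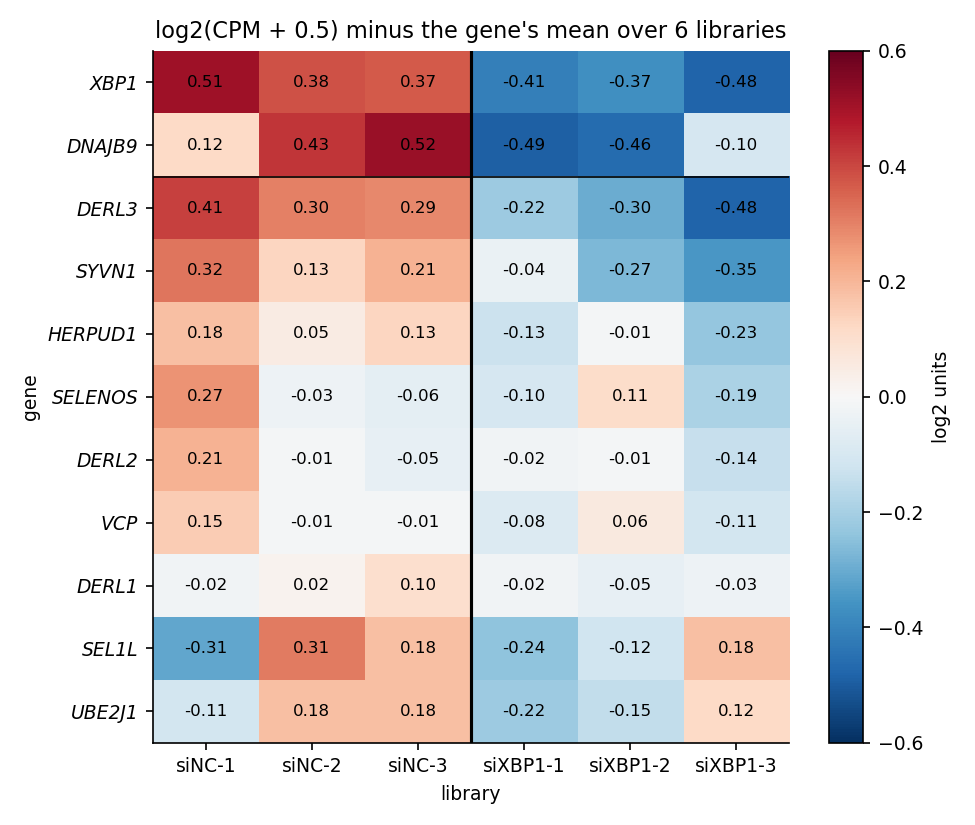
Each cell gives log2(CPM + 0.5) of a gene (rows) in a library (columns) minus the mean of that gene over the 6 libraries, in log2 units; red is higher and blue lower. SEL1L and UBE2J1 are low in siNC-1 (-0.31 and -0.11) and high in siXBP1-3 (0.18 and 0.12), whereas SELENOS, DERL2 and VCP are high in siNC-1 (0.27, 0.21 and 0.15) and low in siXBP1-3. SYVN1, HERPUD1 and DERL3 are also highest in siNC-1 (0.32, 0.18 and 0.41) and lowest in siXBP1-3 (-0.35, -0.23 and -0.48).

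Set side by side, all 9 estimates were below 0, with a median log2 fold change of -0.13. Among all genes tested 47.2% of estimates were below 0 and the median was 0.01. Of the 9, 0 passed edgeR's test over all genes, 3 had an unadjusted p under 0.05 with a lower level (SYVN1, HERPUD1 and DERL3), and 0 had one with a higher level. Over all genes, 1.7% had such a p and were lower. The same 3 genes, 33.3% of the members, had siXBP1 libraries all below the siNC libraries, against 3.74% of all genes tested. Of the other tools, DESeq2 called 1 of the 9 and limma-voom 0.

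Members differed in how they followed the first component. With its score as a covariate, edgeR called 2 of the 9 as lower, SYVN1 (-0.40, SE 0.06, adjusted p = 0.000812) and DERL3 (-0.66, SE 0.11, adjusted p = 0.00134), against 0.495% of all genes tested. In that fit UBE2J1 (adjusted p = 0.0711), HERPUD1 (0.0723) and SEL1L (0.077) came next, at -0.22, -0.21 and -0.22. The score was computed from these same 6 libraries and is taken as known, so these SEs may be too small. Without both siNC-1 and siXBP1-3, 4 of the 9 were called as lower: SEL1L, DERL3 (-0.57), UBE2J1 and SYVN1 (-0.32). That fit has 2 libraries a group and called 3.42% of all genes as lower. In it 6 of the 9 estimates were below 0, against 48.0% of all genes, and those of DERL2 (0.02), SELENOS (0.06) and VCP (0.0024) were above 0. SYVN1, HERPUD1 and DERL3 were highest in siNC-1 and lowest in siXBP1-3. Without these 2 libraries their estimates were -0.32, -0.15 and -0.57, smaller in size than with all 6 libraries (-0.44, -0.24 and -0.69). DERL3 and SYVN1 were the 2 members called both with the covariate and without the libraries at its ends. Both fits rest on the same component of these 6 libraries, so their calls are not independent. The libraries left out were chosen by that score, so the SEs of the fit without them may be too small as well.

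**Figure D3:**
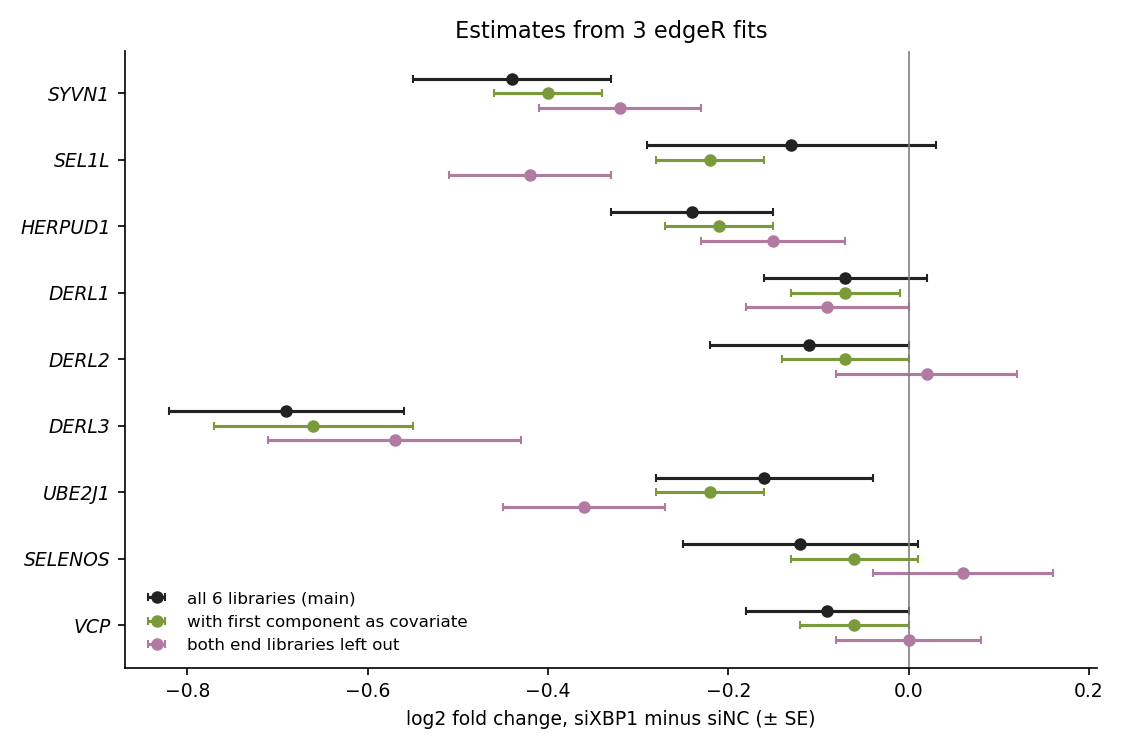
Log2 fold change of siXBP1 minus siNC (horizontal axis, points ± SE) for the 9 genes (rows) from edgeR with all 6 libraries, with the first component as a covariate, and without both siNC-1 and siXBP1-3 (the libraries at its ends). DERL3, SYVN1, HERPUD1 and UBE2J1 lie below 0 by more than their SE in each fit, while SEL1L moves from -0.13 to -0.42 and SELENOS from -0.12 to 0.06.

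Genes whose profile over the 6 libraries was most like that of a member were found by the root-mean-square difference of centred log2 CPM, among 10744 other tested genes that averaged 5 CPM or more. For DERL3 the nearest was XBP1 itself (0.102 log2 units), followed by GMPPB (0.104), which makes GDP-mannose for glycosylation, and AMIGO3 (0.108), which neighbours GMPPB in the genome by RefSeq. The median distance from DERL3 to all candidates was 0.372. For SYVN1 they were TSPYL2 (0.046), CRELD1 (0.054) and ENGASE (0.055), the last a cytosolic enzyme that removes N-glycans, against a median of 0.277. For HERPUD1 they were ENDOV (0.023), IFT122 (0.033) and PDIA4 (0.038), an ER disulfide isomerase, against a median of 0.192. PDIA4 had 826, 744 and 761 CPM in siNC and 661, 671 and 614 CPM in siXBP1. The distances describe 6 libraries in 2 groups, and genes with a like group difference are close by construction.

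Around the core, lists of genes from the same pathway were read from the same fit, and with all 6 libraries and no covariate 0 of their 55 tested genes passed over all genes by edgeR. Of 7 lectins, mannosidases and the reductase DNAJC10, which select and deliver glycoprotein clients to SEL1L, all 7 had estimates below 0 (median -0.08; 47.2% of all genes), and 1 had an unadjusted p under 0.05 and was lower (1.7% of all genes). That gene was EDEM1, which trims mannose from misfolded glycoproteins. It had 131, 151 and 145 CPM in siNC and 105, 114 and 122 CPM in siXBP1, without overlap (log2 fold change -0.32, SE 0.10, edgeR unadjusted p = 0.0109, adjusted p = 1). When the first component was a covariate, edgeR called 2 of the 7 as lower, EDEM1 (-0.36, adjusted p = 0.0018) and DNAJC10 (-0.26, adjusted p = 0.0208). That fit called 0.495% of all genes tested as lower. Without both siNC-1 and siXBP1-3 edgeR called 4 of the 7 as lower, against 3.42% of all genes. These were EDEM1 (-0.43), EDEM3 (-0.62), ERLEC1 (-0.30) and DNAJC10 (-0.46), while the other 3 estimates were above 0. EDEM3, ERLEC1 and DNAJC10 overlapped between groups over all 6 libraries. Of the other lists, 0 genes were called in either of these fits.

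With all 6 libraries and no covariate, the other lists were balanced. Of 14 accessory factors of the HRD1 complex, 7 estimates were below and 7 above 0 (median 0.00), and 0 had an unadjusted p under 0.05. The lowest p-values belonged to SVIP, an inhibitor of VCP at the ER (log2 fold change 0.31, SE 0.15, edgeR unadjusted p = 0.0635), and TXNDC11 (-0.16, SE 0.10, edgeR unadjusted p = 0.132). Of 12 tested ubiquitin ligases of the ER membrane other than HRD1 and their partners, 6 were below and 6 above 0. RNF145, a sterol-responsive ligase, had 153, 140 and 148 CPM in siNC and 164, 172 and 177 CPM in siXBP1 (0.22, SE 0.09, edgeR unadjusted p = 0.0317, adjusted p = 1). All its siXBP1 libraries were above all siNC libraries, as for 5.01% of all genes tested. An unadjusted p under 0.05 with a higher level was found for 1.9% of all genes tested. Of 22 tested cofactors of VCP and handlers of its clients, 12 were below and 10 above 0 (median -0.01), and 0 had an unadjusted p under 0.05. UFD1 (0.14, SE 0.11, edgeR unadjusted p = 0.241), a subunit of the adaptor that directs VCP to ubiquitin chains, and the deubiquitylase VCPIP1 (0.19, SE 0.17, edgeR unadjusted p = 0.276) had the lowest.

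**Figure D4:**
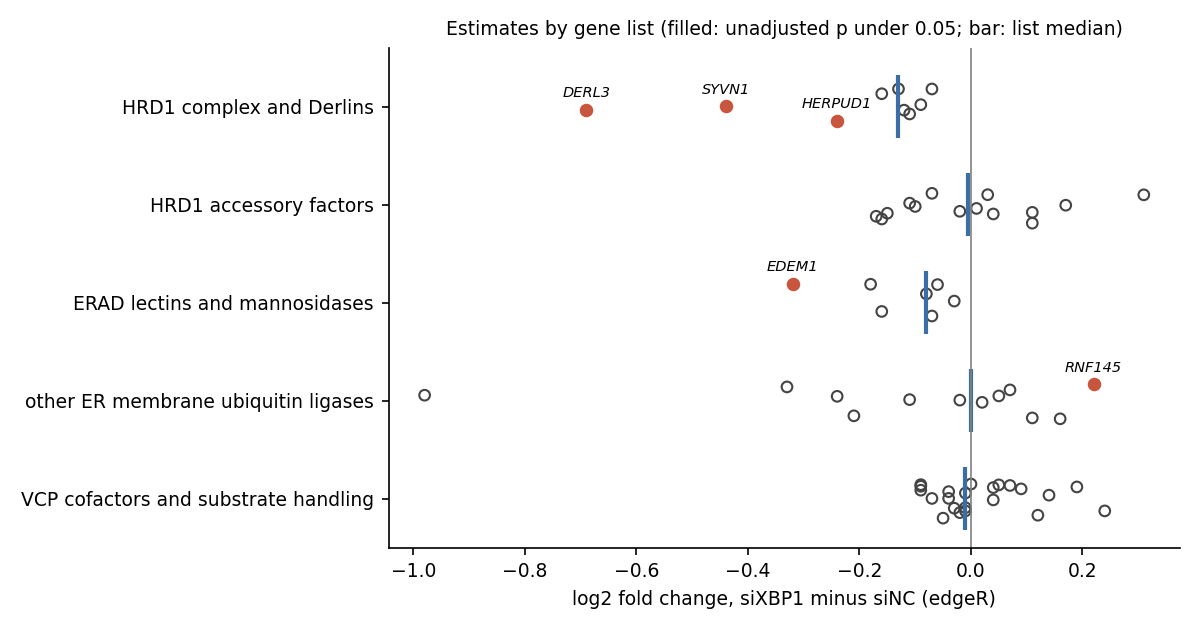
Log2 fold change of siXBP1 minus siNC (horizontal axis) for each tested gene, by list (rows); filled points have an unadjusted p under 0.05 and bars mark list medians. The 9 core genes and the 7 lectins and mannosidases lie below 0, and the other 3 lists spread around it, with DCST1 (-0.98) farthest out at under 1 CPM in every library.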

How the data were processed

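RNA-seq of 6 libraries was analysed, 3 siNC and 3 siXBP1, grouped by sample title. The 2 ChIP-seq samples were not analysed here. The authors deposited raw read counts per gene, not normalized; alignment to hg38 with STAR 2.5.2a and counting with featureCounts 1.5.0 are named in the submitters' processing notes. Library preparation was stranded, per the labels' protocols; the sources used here give neither the strand setting nor the annotation of the counting. RefSeq symbols were matched for 18526 of 18555 gene IDs. Among counts of 1 to 40, 75.8% to 80.5% were even, as when both mates of a pair are counted. A floor of 3 counts equals 0.0771 to 0.0785 CPM; intervals and floors cover counting error only.

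Genes were filtered with filterByExpr, scaled with TMM and tested with edgeR 4.0.16 (R 4.3.3), quasi-likelihood, two-sided, group as the only term; p-values were adjusted by Benjamini-Hochberg over all genes. The SE is the log2 fold change divided by the square root of F. DESeq2 1.42.0, limma-voom (limma 3.58.1) and other scalings, filters and sample sets were alternatives. The code was tested on simulated data. Nothing in the labels ties replicates to separate cultures, so the p-values reflect only how far these samples differ, possibly for technical reasons. Members, lists and alternatives were chosen with earlier results of these data known. Named genes are the members, XBP1, DNAJB9, list genes with an unadjusted p under 0.05 (or, with none, the 2 with the lowest p), and the 3 genes most like SYVN1, HERPUD1 and DERL3. Other genes are named for a span that overlaps a member, as cell type markers, or after their values were seen. Levels per length and Derlin protein identity were planned but not analysed here, since exon lengths and protein sequences were not used.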

Additional observations from a re-analysis of the deposited data

How the results depend on the processing

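Under 17 alternatives the estimates of SYVN1 (-0.53 to -0.32), DERL3 (-0.75 to -0.57), HERPUD1 (-0.31 to -0.15), DERL1, SEL1L and UBE2J1 stayed below 0. Those of DERL2, SELENOS and VCP turned above 0 only without both siNC-1 and siXBP1-3 (0.02, 0.06 and 0.0024). Members called numbered 1 with DESeq2, 2 with the first component as a covariate and 4 without both siNC-1 and siXBP1-3, and 0 in the other 14 alternatives. Over all genes, calls numbered 0 with upper-quartile factors, 16 with DESeq2, 176 with the covariate and 702 without both siNC-1 and siXBP1-3; the cause was not tested. With 1 library left out, 0 or 1 gene was called over all genes, 0 members were called and all 9 members kept estimates below 0. XBP1 itself lost its call without siNC replicate 2 (adjusted p = 0.175), siNC replicate 3 (0.213), siXBP1 replicate 1 (0.475) or siXBP1 replicate 2 (0.284), and with upper-quartile factors (0.0546), while its log2 fold change in these fits stayed between -0.88 and -0.84.

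With the replicate number as a block, edgeR called 1 gene and 0 members. Same-numbered libraries deviated from their group means with correlations of 0.614, -0.38 and 0.45, so the numbers were not taken as pairs, and not every library correlated best with its own number (siNC-2 with siXBP1-3, 0.665). The median log2 fold change of all genes stayed between -0.012 and 0.013. With 3 libraries a group, depth limits DERL3 most among the members (388 counts in its lowest library).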

Other observations

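A few genes of the pathway lists are named here after their values were seen. BAG6, a chaperone for membrane proteins on their way to degradation, had 10, 2 and 6 counts in siNC and 0, 24 and 1 in siXBP1, and fell below the filter on low counts of the edgeR fit. DESeq2 gave a log2 fold change of 0.49 with an SE of 1.45. RNF5, listed among the ligases, had no row. How mapping and counting treated BAG6 and RNF5 was not tested, so low or absent counts need not mean low expression. Beside EDEM1 and RNF145, the groups did not overlap for TXNDC11, RNF139 and DCST1, lower in siXBP1, and for SVIP, higher in siXBP1. In all, 4 of the 55 tested list genes were lower without overlap and 2 higher, against 3.74% and 5.01% of all genes tested. RNF139, a ligase that restrains sterol synthesis, had 30.5, 30.7 and 29.3 CPM in siNC and 23.4, 25.5 and 29.3 CPM in siXBP1, so that its closest libraries differed by less than the third digit. Its log2 fold change was -0.21 (SE 0.12, edgeR unadjusted p = 0.113, adjusted p = 1). DCST1 had 36, 16 and 20 counts in siNC and 15, 9 and 12 in siXBP1.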
